A study of Mus musculus with 6 samples.

Results

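Ski, Skil, Pmepa1, Ldlrad4, Tgif1, Tgif2 and Spsb1 are negative regulators of Smad2 and Smad3 signalling, and their transcripts were compared between mouse embryonic stem cells kept with the receptor inhibitor SB431542 and cells kept with its solvent DMSO. The genes were fixed by name, with earlier results of these data known. Every non-control probe whose RefSeq accession maps to one of them was taken. This gave 11 probes for the 7 genes, out of 20645 genes and 55600 probes in all. All 11 probes and all 7 genes passed the filter on dim probes. The cells were J1, a mouse embryonic stem cell line of strain 129S4/SvJae, adapted to gelatin and grown with the cytokine LIF in serum replacement medium. Every culture received LIF for the 24 h of the experiment, with 3 µM SB431542 in one group (3 arrays) and DMSO in the other (3 arrays). Total RNA was labelled with Cy3 and hybridised to 1-colour Agilent arrays.

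Ligands of the TGF-beta, activin and Nodal group bind paired receptors on the cell surface, and the type I receptor kinase then phosphorylates Smad2 and Smad3, which enter the nucleus with Smad4 and regulate transcription. SB431542 blocks the kinase of the type I receptors for these ligands. The genes studied here damp that pathway at different steps, and several of them are known in other cells as targets of the pathway that close a negative feedback loop. In mouse embryonic stem cells the pathway is driven largely by Nodal and activin made by the cells themselves or supplied by the medium.

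The arrays were alike in quality. The share of spots well above background was 63.9% to 66.2%, 0 were saturated, and arrays correlated at 0.995 to 0.998 within a group and 0.991 to 0.994 across groups. One slide and scan, here slide 1, held 5 of the 6 arrays, and slide 2 held SB431542 replicate 3 alone. The typical (median) SD of a feature was 0.07 log2 units among DMSO arrays and 0.12 among SB431542 arrays. All 10 embryonic stem cell markers examined were well above background on all 6 arrays, and 3 of them fell (Tdgf1, Dppa5a and Utf1). Among all features, 7.39% fell, the share to set beside each marker count here. Of 8 fibroblast markers, 4 were well above background on all arrays, and Lum and Postn on none. The summed stem cell marker signal was 65832% to 68239% of an array's 75th percentile signal in DMSO and 49860% to 55599% with SB431542. This sum weighs bright genes most, and Dppa5a, the brightest of the 10, changed by -0.49 ± 0.07. The other 7 markers did not pass, among them Nanog (-0.02 ± 0.06), Sox2 (0.03 ± 0.05) and Pou5f1 (-0.29 ± 0.14). The summed fibroblast marker signal was 235% to 252% in DMSO and 189% to 209% with SB431542, and 3 of the 6 measured members fell (Col1a2, Dcn and Pdgfrb). Without any 1 of the DMSO arrays Dcn (adjusted p = 0.0751 to 0.102) and Pdgfrb (0.0794 to 0.0880) lost their calls, which leaves Col1a2, and 0 of 3 SB431542 arrays had a Dcn signal well above background. The summed signal of 8 germ layer markers was 192% to 200.1% in DMSO and 175% to 194% with SB431542, and 7 were well above background on all arrays. Of the 7 measured, 1 fell (Sox1, -0.30 ± 0.05, limma adjusted p = 0.0208). That call was lost without any 1 of the DMSO arrays or without SB431542 replicate 1. The part of such cells in the results was not tested, and in bulk RNA fewer cells of a type and less RNA per cell cannot be told apart. The labels do not state whether the arrays of a group came from different cultures. The p-values therefore rest on array-to-array spread that could be purely technical.

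RefSeq holds a promoter window for Ski, Tgif1, Tgif2 and Spsb1 in the table used here. It holds none for Skil, Pmepa1 and Ldlrad4. The 250 bases before the start of Ski, of Tgif2 and of the first of 5 listed starts of Tgif1 are printed. They set a gene that fell beside 2 repressor genes of another family that did not pass the test. The Ski call was lost without any 1 of the DMSO arrays, so the contrast is weak. The printed sequences are described as follows. The sequences come from RefSeq, build GRCm38.p6, and lie at chr4:155222536-155222785 on the minus strand for Ski, at chr17:70853533-70853782 on the minus strand for Tgif1 and at chr2:156839757-156840006 on the plus strand for Tgif2. Capitals mark CAGAC on either strand, the core letters that Smad3 and Smad4 bind, and GGCGCC, a run that holds the GC-rich Smad letters on both strands.
Ski: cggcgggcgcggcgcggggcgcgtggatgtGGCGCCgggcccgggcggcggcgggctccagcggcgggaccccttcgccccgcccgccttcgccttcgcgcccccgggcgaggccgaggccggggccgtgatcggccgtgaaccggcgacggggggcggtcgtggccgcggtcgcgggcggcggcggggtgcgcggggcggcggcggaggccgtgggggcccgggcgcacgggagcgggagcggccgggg
Tgif1: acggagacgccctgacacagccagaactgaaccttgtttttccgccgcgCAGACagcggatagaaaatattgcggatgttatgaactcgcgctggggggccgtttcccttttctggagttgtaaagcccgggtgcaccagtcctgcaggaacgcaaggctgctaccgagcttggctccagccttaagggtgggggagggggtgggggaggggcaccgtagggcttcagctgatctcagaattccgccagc
Tgif2: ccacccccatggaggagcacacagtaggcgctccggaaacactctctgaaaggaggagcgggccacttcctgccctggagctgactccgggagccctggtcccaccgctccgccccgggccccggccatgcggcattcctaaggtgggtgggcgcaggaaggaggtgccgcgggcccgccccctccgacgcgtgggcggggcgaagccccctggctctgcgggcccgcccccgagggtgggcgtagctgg
CAGAC or its reverse complement occurred 0 times in the Ski window, 1 time in the Tgif1 window and 0 times in the Tgif2 window, and 42.2% of all 32851 windows held it. Spsb1, at chr4:149955007-149955256 on the minus strand, also held 0 copies. The other listed windows of Tgif1 held 2, 0, 1 and 0 copies of CAGAC, so the count for Tgif1 depends on the start. GGCGCC occurred 1 time in the Ski window and 0 times in the others named, against 9.59% of all windows. Only this full run was counted and capitalised. The shorter run GGCGC, which is part of it, also lies in the Tgif2 and Spsb1 windows, so the count does not set Ski apart. Neither GTCTAGAC (0.167% of windows) nor the Foxh1 motif AATCCACA (0.718%), searched on both strands, occurred in any of the 8 windows of these 4 genes. TGTCA, the letters bound by Tgif proteins, occurred 1 time in the first Tgif1 and 1 time in the Spsb1 window, and 40% of windows held it on either strand. In the other listed Tgif1 windows it occurred 1, 0, 0 and 2 times. GC content was 87.6% for Ski, 59.6% for Tgif1, 74% for Tgif2 and 64.4% for Spsb1, beside a median of 52.4% over all windows. These matches describe letters and show no binding.

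With SB431542, 4 of the 7 genes fell and 0 rose. The 4 were Pmepa1, Ldlrad4, Skil and Ski, and the falls ran from 1.54-fold to 6.23-fold. Tgif1, Tgif2 and Spsb1 did not pass the test. Over all 25899 features 12.6% changed and 7.39% fell at the same threshold (limma, Benjamini-Hochberg adjusted p under 0.05 over all features). Falls of at least 2-fold were seen for 3 of the 7 genes and for 1.21% of all features. The median log2 change was -0.63 over the 7 genes and 0.02 over all features. The groups did not overlap for 5 of the 7 genes, beside 36% of all features in either direction and 17.3% lower with SB431542. Because the 7 genes were chosen with earlier results of these data known, their counts beside these shares give context only.

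**Figure D1:**
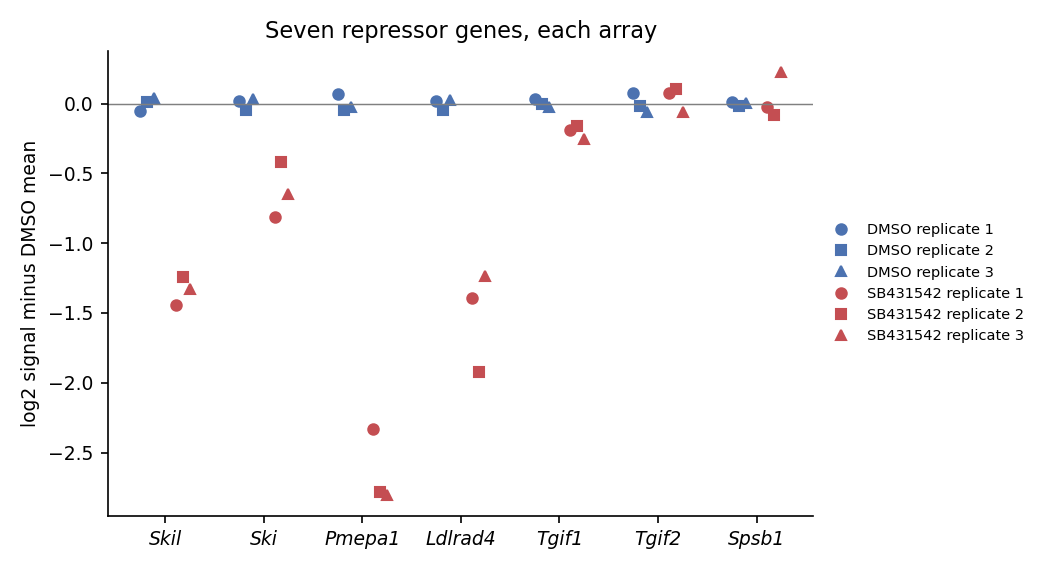
The log2 signal of each gene on each array, after scaling to the array's 75th percentile and minus the mean of the 3 DMSO arrays, is plotted for the 7 genes, with blue symbols for DMSO, red symbols for SB431542 and 1 symbol shape per replicate number. The red symbols of Skil, Ski, Pmepa1 and Ldlrad4 lie between -0.42 and -2.80, those of Tgif1 between -0.16 and -0.25, and those of Tgif2 and Spsb1 on both sides of 0.

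Pmepa1 had the largest change of the group. It encodes a membrane protein that binds Smad2 and Smad3 and keeps them from the anchor protein that presents them to the receptor. Its brighter probe had a processed signal of 198, 179.7 and 184 in DMSO replicates 1 to 3 and of 35.5, 22.9 and 28.3 in SB431542 replicates 1 to 3. All SB431542 values lay far below all DMSO values, and the probe was still well above background on 3 of 3 SB431542 arrays. The log2 change was -2.64 ± 0.14 (SE, 3 arrays per group, limma adjusted p = 0.000448), which leaves 16.1% of the DMSO level (95% confidence interval 12.7% to 20.3%). Only 28 of 25899 features had a more negative fitted change. Among the SB431542 arrays, replicate 1 stood at -2.33 relative to the DMSO mean on the log2 scale and replicates 2 and 3 at -2.78 and -2.80.

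The other Pmepa1 probe gave 180.7, 144 and 176 in DMSO and 28.4, 23.2 and 26.4 with SB431542. Its log2 change of -2.60 ± 0.11 (limma adjusted p over all 36184 probes = 0.000343) was within the error of the first probe. With normexp background correction, which adds an offset of 50 to each signal, the fitted change of Pmepa1 was -1.36 and the call remained (adjusted p = 4.52e-06).

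Ldlrad4 is related to Pmepa1 and encodes a membrane protein that acts on Smad2 and Smad3 in a like manner. It fell as well, from a dim probe. The processed signal was 45.2, 42.8 and 45.1 in DMSO and 16.1, 9.90 and 19.8 with SB431542. The groups did not overlap, and SB431542 replicate 2, the lowest, was not well above background, while the other 5 arrays were. The lowest signal called well above background on any spot ran from 8.59 to 10.9 over the arrays. The log2 change was -1.52 ± 0.18 (limma adjusted p = 0.00486), or 34.9% of the DMSO level (95% confidence interval 25.9% to 47.1%). Without SB431542 replicate 2 it was -1.32, and under normexp it was -0.42, both past the threshold. The SD over arrays on the log2 scale was 0.04 in DMSO and 0.36 with SB431542.

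Skil encodes SnoN, a corepressor that binds Smad complexes and is degraded when the pathway is switched on. Its brighter probe, printed on 10 spots, had a mean processed signal of 2909.65, 3005 and 3067 in DMSO and of 1053, 1067 and 1257 with SB431542. The SB431542 arrays were all low, and after scaling the highest of them, replicate 2, lay 1.19 below the lowest DMSO array on the log2 scale. The log2 change was -1.34 ± 0.07 (limma adjusted p = 0.000436), or 39.6% of the DMSO level (95% confidence interval 35.2% to 44.4%). The other probe was dimmer, at 231, 225 and 247 in DMSO and 88.0, 83.7 and 98.6 with SB431542, and changed by -1.30 ± 0.06 (limma adjusted p over all probes = 0.000478).

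The 10 spots show the technical spread within an array. Feature Extraction marked 1 spot as an outlier on 5 of the 6 arrays, which left 9 or 10 spots per array. Their signals ran from 2644 to 3087 on DMSO replicate 1 and from 1148 to 1303 on SB431542 replicate 3, the array with the highest SB431542 values. The coefficient of variation over spots was 2.69% to 5.13% in DMSO and 2.74% to 4.74% with SB431542. For the 9 spots kept on every array, the log2 change ran from -1.40 to -1.26 with a median of -1.35. These spots share the RNA of an array and are not replicates of the treatment.

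**Figure D2:**
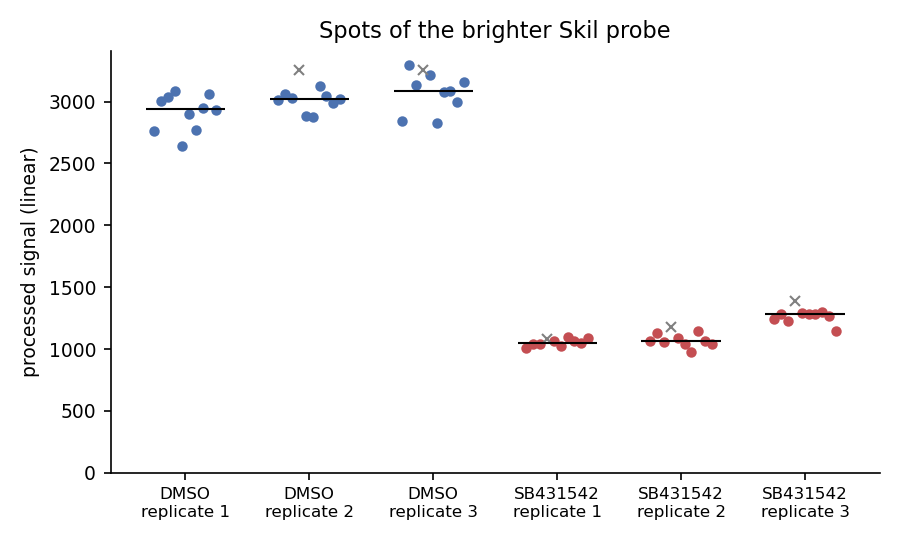
The processed signal on a linear axis from 0 is plotted for each spot of the brighter Skil probe on each of the 6 arrays, with black lines at the medians and crosses for spots left out as outliers. No spot with SB431542 (highest 1303 among those kept) comes near the lowest DMSO spot (2644).

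Ski, the founding member of the same corepressor family as Skil, fell by less. The processed signal was 134, 127 and 135 in DMSO and 71.9, 83.3 and 88.8 with SB431542. The groups did not overlap, with replicate 2 the nearest to DMSO after scaling. The log2 change was -0.63 ± 0.10 (limma adjusted p = 0.0160), or 64.8% of the DMSO level (95% confidence interval 54.2% to 77.5%). Its call was lost without DMSO replicate 1, 2 or 3 (adjusted p = 0.0653, 0.0592 and 0.0686), where the change stayed between -0.65 and -0.61. Under normexp the change was -0.38.

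Tgif1 and Tgif2 encode homeodomain proteins that bind Smads and recruit histone deacetylases. The Tgif1 signal was 21436, 20659 and 20415 in DMSO and 17488, 15789.9 and 18386 with SB431542. All SB431542 values lay below all DMSO values. The log2 change of -0.20 ± 0.05 missed the threshold (limma adjusted p = 0.0645), and its 95% confidence interval covers 79.6% to 95.3% of the DMSO level. It passed under normexp (0.0427) and with a variance trend in limma (0.0179), and over all alternatives the adjusted p ran from 0.0179 to 0.197.

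Tgif2 had 3 probes, none of which passed. The brightest gave 865, 801 and 782 in DMSO and 821, 742 and 824 with SB431542, so the groups overlapped. Its log2 change was 0.04 ± 0.07 (limma adjusted p = 0.739), with a 95% confidence interval of 91.4% to 115.8% of the DMSO level. The other probes changed by 0.01 ± 0.09 and 0.06 ± 0.06. A fall of the size seen for Ski lies outside the intervals of all 3 probes.

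Spsb1 encodes an adapter of a cullin ubiquitin ligase that promotes turnover of the type II TGF-beta receptor. The signal was 316, 306 and 313 in DMSO and 292, 249 and 384 with SB431542. Replicates 1 and 2 lay below the DMSO range and replicate 3, on slide 2, above it. The log2 change was 0.04 ± 0.09 (limma adjusted p = 0.808), with a 95% confidence interval of 88.2% to 119.9% of the DMSO level, and -0.054 without replicate 3. The SD on the log2 scale was 0.02 in DMSO and 0.16 with SB431542.

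**Figure D3:**
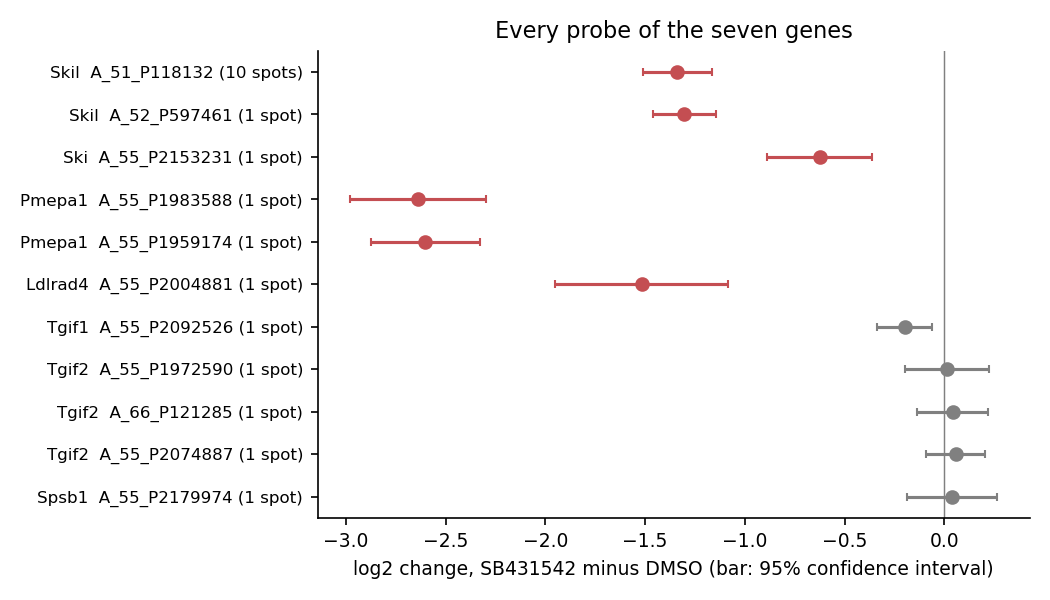
The log2 change of SB431542 minus DMSO is plotted for each of the 11 probes with its 95% confidence interval from limma, red where the probe fell past the threshold and grey where it did not. The 6 red probes belong to Skil, Ski, Pmepa1 and Ldlrad4, and the 5 grey probes to Tgif1, Tgif2 and Spsb1, with that of Tgif1 the only grey interval that leaves out 0.

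Probes of the same gene gave like changes. Tested one by one, 6 of the 11 probes fell and 0 rose, against 6.49% of all 36184 probes that fell, 4.31% that rose and 10.8% that changed. The groups did not overlap for 7 of the 11 probes (34.8% of all probes in either direction, 17.1% lower with SB431542), and 5 fell at least 2-fold (1.17% of all probes). The probes of Skil differed by less than the SE of either, as did those of Pmepa1. Ski, Ldlrad4, Tgif1 and Spsb1 rest on 1 probe each.

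The changes of related genes were set side by side within each array. The within-array difference of log2 signals between Skil and Ski was 4.44 to 4.57 in DMSO and 3.68 to 3.87 with SB431542, a shift of -0.71. For Pmepa1 and Ldlrad4 the within-array difference was 2.03 to 2.13 in DMSO and 0.51 to 1.21 with SB431542, a shift of -1.12 that includes the Ldlrad4 value of SB431542 replicate 2, which was not well above background, and was -1.25 without that array. For Tgif1 and Tgif2 it was 4.63 to 4.71 and 4.41 to 4.48, a shift of -0.24. The groups overlapped for none of the 3 pairs. An exact two-sided permutation test gave p = 0.1 for each pair, also after adjustment over the 3 pairs, which is the smallest p that 3 arrays against 3 allow, so the design cannot reach 0.05 for them. Unequal change within a pair was therefore not shown at that threshold, and levels of different probes are not comparable.

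Other genes of the pathway were counted from lists. Of 79 measured genes in the 7 lists, 12 fell and 10 rose (27.8% changed, beside 12.6% of all features), and without DMSO replicate 2 the count was 10 and 3. Among 16 other feedback and inhibitory genes, 5 fell and 1 rose, with a median of -0.10. Lefty1 (-9.43 ± 0.20, with 1 SB431542 array not well above background) and Lefty2 (-4.85 ± 0.10), which encode secreted Nodal antagonists, and Smad7 (-4.59 ± 0.05), which encodes an inhibitory Smad, had larger changes than any of the 7 repressors. Smad6, another inhibitory Smad, changed by -0.62 ± 0.05, and Fst, which encodes the activin-binding protein follistatin, by -0.60 ± 0.09, a call that was lost without DMSO replicate 2 (adjusted p = 0.0534). Smurf1, a ubiquitin ligase gene, was the single rise (0.29 ± 0.06, limma adjusted p = 0.0298), and its call was lost when any 1 of the 6 arrays was left out (adjusted p = 0.0574 to 0.115).

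The genes of proteins that the repressors act on or act through changed at a share near the 12.6% of all features, which is no result about these genes. Of 10 receptor and Smad genes with a median of 0.05, 1 rose and 0 fell (10% changed). The rise was Smad3 (0.28 ± 0.06, limma adjusted p = 0.0386), which lost its call without any 1 of the 6 arrays (0.0596 to 0.131), and Smad2 changed by 0.14 ± 0.06 (adjusted p = 0.203). Of 14 corepressor partners with a median of 0.10, 2 rose and 0 fell (14.3% changed). These were the histone deacetylase gene Hdac3 (0.29 ± 0.06, adjusted p = 0.0269) and Ctbp1 (0.25 ± 0.05, adjusted p = 0.0240), and both lost their calls without any 1 of the DMSO arrays or of SB431542 replicates 1 and 2 (adjusted p = 0.0691 to 0.109 for Hdac3 and 0.0548 to 0.101 for Ctbp1).

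Of 8 ubiquitin ligase genes that act on Ski and Skil proteins, 0 changed in limma, beside 12.6% of all features. In this list 1 had an unadjusted p under 0.05, and 1 passed the threshold with a variance trend, with quantile normalization and with the authors' table. Rnf111, the ligase that targets SnoN for degradation on pathway activation, changed by 0.05 ± 0.07. Of 7 partners and relatives of Spsb1, 0 changed in limma (2 at an unadjusted p under 0.05, and 1 past the threshold with a variance trend and with the filter that asks for all 6 arrays). In lists this short, a count of 0 beside 12.6% is no result about these genes. Of 12 relatives of Ski and of the Tgif homeodomain genes, 3 rose and 0 fell, with a median of 0.18. That is 25% changed, beside 12.6% of all features that changed and 5.19% that rose. They were Skor1, a relative of Ski (0.74 ± 0.12, limma adjusted p = 0.0151), and the homeobox genes Meis1 (0.46 ± 0.08) and Pbx2 (0.37 ± 0.06). Without DMSO replicate 2 or SB431542 replicate 2 the count was 0, without DMSO replicate 3 it was 1, and without SB431542 replicate 1 it was 1 risen and 1 fallen gene.

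The list of response genes was led by the same secreted and intracellular inhibitors. Of 17 measured, 10 fell and 3 rose with a median of -0.63 (76.5% changed, beside 12.6% of all features). Nodal itself changed by -0.63 ± 0.06, and the 3 that rose were Tgfbi (1.53 ± 0.05) and the BMP target genes Id1 (0.97 ± 0.09) and Id3 (0.66 ± 0.05), all 4 named after their values were seen. The lists were chosen with earlier results known, so their counts give context only.

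**Figure D4:**
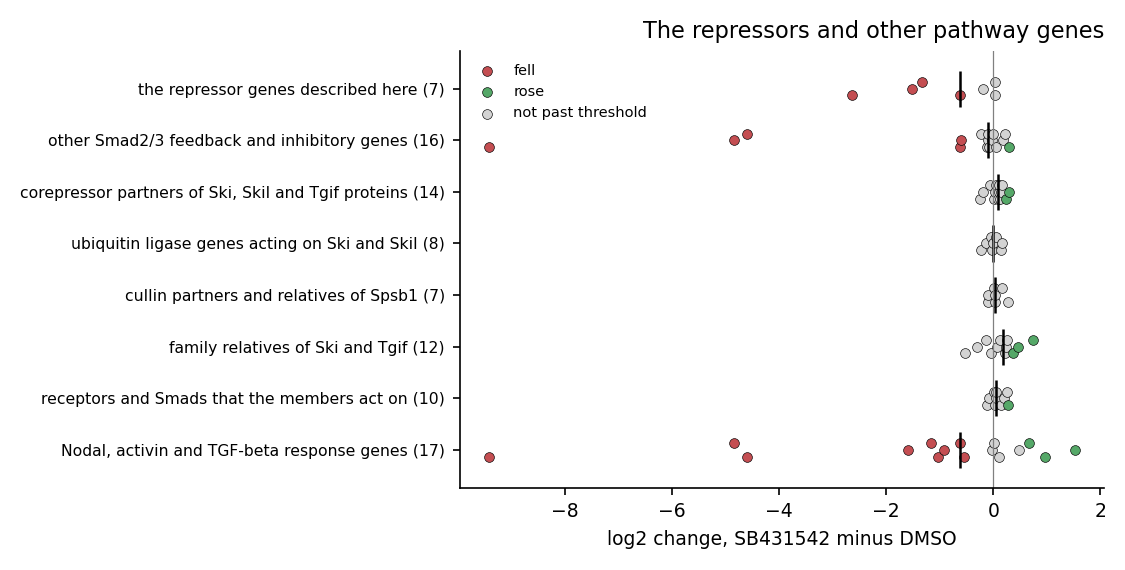
Each point is the log2 change of 1 gene, SB431542 minus DMSO, in the repressor group and in 7 pathway lists, red where it fell, green where it rose and grey where it did not pass, with black lines at the medians and the number measured in brackets. Genes with only a bound are not drawn, and Lefty1, Lefty2, Smad7, Smurf2 and Nedd4l appear in 2 lists.

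Bcl11b and Cdkn1c were among the 3 genes whose pattern over the 6 arrays was most like that of Skil. After centring each gene on its mean, they differed from Skil by a root mean square of 0.054 and 0.056 on the log2 scale, with Pearson r of 0.997 for both. The zinc finger gene Bcl11b changed by -1.32 ± 0.08 and Cdkn1c, a cell cycle inhibitor gene, by -1.36 ± 0.08. Of the 3 genes most like Pmepa1, only Pkdcc was well above background on all 6 arrays. It differed by a root mean square of 0.18 with r of 0.991, and changed by -2.61 ± 0.07. Gbp3 and Shisa6 were well above background on 1 of 3 and 0 of 3 SB431542 arrays, so their likeness rests on signals at the background and is not given. The points are 6 arrays in 2 groups, so r mostly reflects the group difference.

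Genes next to the repressors on the chromosome were looked up by position in the RefSeq table of assembly GRCm38.p6, taking the nearest measured protein-coding gene on each side. Of 14 such neighbours, 4 fell and 0 rose, beside 7.39% and 5.19% of all features. Zbp1, next to Pmepa1 and known as a sensor of nucleic acids, changed by -1.47 ± 0.10 (limma adjusted p = 0.000912), and 1700021F07Rik on the other side by -0.53 ± 0.11 (adjusted p = 0.0331). The neighbours of Skil, Prkci (-0.08 ± 0.07) and Cldn11 (0.09 ± 0.28), did not pass, nor did those of Ldlrad4. Faap20 next to Ski (-0.25 ± 0.05) and Slc25a33 next to Spsb1 (-0.24 ± 0.06) fell. The call of Zbp1 held without any 1 of the 6 arrays, that of Faap20 was lost without 5 of them (not SB431542 replicate 3), and those of 1700021F07Rik and Slc25a33 without each of the 6. These neighbours were named by position after the values of the repressors had been seen.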

How the data were processed

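The scanner files of 6 arrays hold intensity values per spot, which Agilent Feature Extraction (version 10.7 in the submitters' processing notes) subtracted for background and detrended, per the file headers. These deposited intensity values were not yet scaled between arrays. The flags for background, saturation and outlier spots are a score of 0 or 1, per the file headers. The authors also deposited a table on a log2 scale whose columns had equal medians (5.18), and how it was normalized is not stated here. It served as an alternative.

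Outlier spots were left out, spots of a probe were averaged as log2 values, and each array's 75th percentile was subtracted. A probe was kept if 3 or more of the 6 arrays were well above background (36184 probes). Accessions were matched without version to a RefSeq table of GRCm38.p6, which named 27200 probes. The brightest probe stood for a gene, which gave 25899 features. Differences were tested with limma (3.58.1 in R 4.3.3, with Python 3.11.15), two-sided, and p-values were adjusted by Benjamini-Hochberg across the 25899 features. The steps were tested on simulated data. For arrays, their number limits the precision.

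"Rose" and "fell" are used past an adjusted p of 0.05. All 7 genes and their probes are named. From each list, members past the threshold were named, up to 4 by smallest adjusted p. A few further list members are named for their role, and some genes that the rule names are not reported here. Members and lists were chosen with earlier results of these data known. Alternatives were normexp, quantile normalization, the authors' table, other filters and probe rules, slide, scan and replicate blocks, a variance trend, a threshold of 0.01 and leaving out each array. Slide and scan split the arrays alike.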

Additional observations from a re-analysis of the deposited data

How the results depend on the processing

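Between 3 and 5 of the 7 genes fell under each alternative, and 0 rose. The calls of Skil, Pmepa1 and Ldlrad4 held under all alternatives run, with ranges of -1.38 to -1.29, -2.79 to -1.36 and -1.66 to -0.42 on the log2 scale. The lowest sizes for Pmepa1 and Ldlrad4 came with normexp, whose offset of 50 is above their SB431542 signals. Ski was -0.63 with an adjusted p of 0.0628 with a replicate block, which also gave 3 genes, 5 probes and 15 list genes past the threshold. The block changed no other call among the 7 genes. Same-numbered arrays correlated in their deviations from the group means at 0.0018, 0.072 and -0.058, and arrays with different numbers at -0.078 to 0.075. With 3 arrays per group these values cannot show whether same-numbered arrays were paired, and the labels give only the number. Leaving out single arrays gave -0.73 to -0.53 for Ski, -0.054 to 0.10 for Spsb1 and 13 to 21 changed list genes against 22. Tgif1 was -0.20 under normexp and with a variance trend, both past the threshold. A block for slide or for scan gave -0.054 for Spsb1, which equals the fit without SB431542 replicate 3. The difference between Skil and Ski was -0.91 under normexp. At an adjusted p under 0.01, 3 genes fell. Ldlrad4 had no value when all 6 arrays had to be well above background. The scanner files used here hold no mean signal column, so normexp was run on the median signal.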
